A study of Mus musculus with 6 samples.

Results

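A set of 9 genes of early B-cell identity was followed in transformed mouse blood progenitors: the transcription factor genes Ebf1, Pax5 and Foxo1, the surrogate light chain genes Vpreb1, Igll1 and Vpreb3, the receptor signalling chains Cd79a and Cd79b, and the B-cell surface receptor Cd72. They were chosen by name as a set of B-cell commitment and pre-B receptor genes, and all 9 were found among the 23337 counted genes. Polyadenylated RNA came from hematopoietic stem and progenitor cells (HSPCs) transformed with MLL-AF9, a leukemia fusion gene that all 6 libraries share. The cells were kept either in pro-lymphoid culture (replicates 1, 5 and 6) or in pro-myeloid culture (replicates 2, 3 and 4), and no untransformed or B-lineage sample was analysed here. The labels name neither the strain and age of the mice nor the cytokines, and whether libraries of a group came from different cultures or animals is not stated. The p-values below therefore describe variation among these libraries alone, which could be technical.

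B-lineage commitment proceeds from E2A, PU.1 and Ikaros through EBF1, which opens the B-cell program, to PAX5, which fixes it and represses genes of other lineages, while FOXO1 acts with both and drives the recombinase genes. A cell that has rearranged its heavy chain pairs it with VpreB (Vpreb1, Vpreb2) and λ5 (Igll1), which together mimic a light chain, and signals through Igα (Cd79a) and Igβ (Cd79b). CD72 is an inhibitory receptor that recruits the phosphatase SHP-1 (Ptpn6) and binds CD100 (Sema4d).

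The 9 genes did not move as a block. Of these, 6 passed a filter on low counts and were tested (edgeR quasi-likelihood test, threshold adjusted p under 0.05). Cd72 was higher in pro-lymphoid culture, Foxo1, Vpreb1 and Igll1 were lower there, and Cd79a and Cd79b did not pass the test. Of all 12477 genes tested, 38.6% passed in either direction, with 17.4% higher and 21.3% lower in pro-lymphoid culture. Without a filter on low counts the same number, 4, passed, now with Pax5 in place of Igll1, against 28.8% of the 16708 genes then tested. Ebf1 and Vpreb3 were too low for the test, and the filter also removed Pax5, whose counts lay almost all in 2 libraries. Of the 6 tested genes, Cd72, Foxo1, Vpreb1 and Igll1 had library values that did not overlap between the cultures, and 53.6% of all tested genes were likewise without overlap. A log2 fold change is given throughout as pro-lymphoid minus pro-myeloid, and its median was -1.28 over the 6 tested genes against 0.00 over all genes tested. These are bulk libraries, in which fewer cells of a type and less RNA per cell cannot be told apart.

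**Figure D1:**
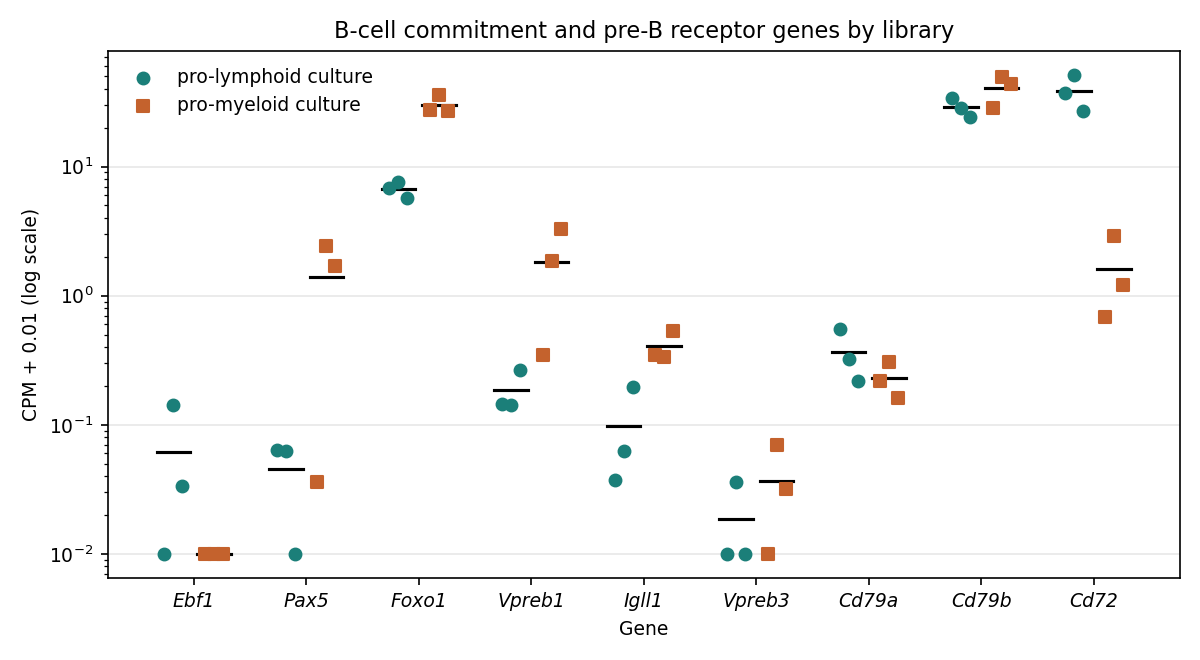
Level of each of the 9 genes in each library, as CPM (counts at a common library size) plus 0.01 on a log axis, with circles for pro-lymphoid and squares for pro-myeloid culture and a bar at each group's mean. Foxo1, Vpreb1 and Igll1 are lower and Cd72 is higher in all 3 pro-lymphoid libraries, and the pro-myeloid values of Pax5 and Vpreb1 are spread, with replicate 2 the lowest.

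Levels are CPM (counts scaled to a common library size) with TMM (trimmed mean of M-values) scaling of library sizes. The libraries held 34972488 to 46724382 counts, so that 3 counts in 1 library stand for 0.065 to 0.0888 CPM. Among the pro-myeloid libraries, replicate 2 stood apart in several genes below: it held the lowest summed level of 10 neutrophil markers of its group (4536 CPM, against 6580 and 9115 CPM in replicates 3 and 4) and the lowest Pax5, Vpreb1, Flt3 and Mpo. Calls of the 9 genes that change without it are given both ways, as are the counts of the lists.

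Of the 3 transcription factor genes, Foxo1 was read in all libraries, Pax5 mostly in 2 of them and Ebf1 hardly at all. Ebf1 (chr11:44618134-45005172, plus strand, mm10), the first B-lineage-specific factor, had 0, 5 and 1 counts in pro-lymphoid replicates 1, 5 and 6, and none in any pro-myeloid library. The 6 counts of the pro-lymphoid group lie in an exact Poisson 95% interval of 2.2 to 13.1, and the 0 of the other group allows up to 3.69. The exact 95% counting interval of the ratio starts at 1.21. Of the 6 counts 5 came from pro-lymphoid replicate 5, without which 1 count stood against 0, and the mean was 0.0513 ± 0.0697 CPM (SD, n = 3). Without a filter on low counts the difference did not pass the test (log2 fold change 4.09 ± 2.30 (SE), adjusted p = 0.224 by edgeR). The counted exons held 37.5% of the bases that GENCODE annotates as Ebf1 exons (2245 of 5984), so these counts do not cover the full transcripts.

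Pax5 (chr4:44531506-44710440, minus strand), the factor that fixes B-cell identity, was read almost only in 2 pro-myeloid libraries. It had 2, 2 and 0 counts in pro-lymphoid replicates 1, 5 and 6, and 1, 81 and 78 counts in pro-myeloid replicates 2, 3 and 4. Replicates 3 and 4 reached 2.4 and 1.69 CPM, while pro-myeloid replicate 2, with 0.026 CPM, lay within the range of the pro-lymphoid libraries (0 to 0.0542 CPM). Summed over libraries the counts were 4 against 160, a 38.8-fold higher share of the pro-myeloid counts (exact 95% counting interval 14.9 to 144). The low-count filter removed Pax5 from the test with all 6 libraries. Without the filter its log2 fold change was -5.19 ± 1.30 (adjusted p = 0.0118 by edgeR), and this call was lost without pro-lymphoid replicate 1, 5 or 6 (adjusted p = 0.0539, 0.0592 and 0.101). Only 13.9% of the bases that GENCODE annotates as Pax5 exons belonged to the counted exons (1208 of 8697), so its level is not that of the full transcripts.

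Foxo1 (chr3:52268337-52350109, plus strand), the FOXO factor that early B cells depend on, was lower in pro-lymphoid culture. It stood at 6.75, 7.61 and 5.72 CPM in pro-lymphoid replicates 1, 5 and 6, and at 27.2, 35.9 and 27.0 CPM in pro-myeloid replicates 2, 3 and 4. The groups did not overlap, and the lowest pro-myeloid library lay well above the highest pro-lymphoid one. The means of 6.69 ± 0.944 and 30.0 ± 5.10 CPM (SD, n = 3 each) differ 4.49-fold (log2 fold change -2.17 ± 0.20, adjusted p = 0.000278 by edgeR). Of the other FOXO genes, neither tested one passed: Foxo3 was at 45.3 ± 5.90 against 48.5 ± 6.28 CPM (log2 fold change -0.10 ± 0.15, adjusted p = 0.627). Foxo4 was at 29.8 ± 3.07 against 31.0 ± 1.07 CPM (-0.05 ± 0.13, adjusted p = 0.775). Foxo6 was read in the direction of Foxo1 at very low levels, with 0 pro-lymphoid and 17 pro-myeloid counts, and was not tested.

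The surrogate light chain genes were read at low levels and mostly in pro-myeloid culture. The promoters of Vpreb1 and Igll1, with those of Cd79a and Cd72, are shown because Tcf3, Spib and Ets1, which encode E2A and ETS factors known to act on such genes, differed in level between the cultures (below). Each runs 5′ to 3′ on the gene's strand from 250 bases before to 50 after the RefSeq start (GRCm38.p6), and capitals mark a motif match. In the Vpreb1 window (chr16:16869206-16869505, minus strand) and the Cd79a window (chr7:24897247-24897546, plus strand) all matches read on the gene's strand. In the Igll1 window (chr16:16863936-16864235, minus strand) and the Cd72 window (chr4:43454577-43454876, minus strand) the match reads on the opposite strand.
Vpreb1: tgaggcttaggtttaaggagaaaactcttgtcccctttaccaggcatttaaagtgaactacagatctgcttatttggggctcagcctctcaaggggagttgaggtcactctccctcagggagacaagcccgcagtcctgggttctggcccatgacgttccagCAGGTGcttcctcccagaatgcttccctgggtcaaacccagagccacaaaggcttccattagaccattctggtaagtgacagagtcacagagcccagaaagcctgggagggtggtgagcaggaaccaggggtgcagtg
Igll1: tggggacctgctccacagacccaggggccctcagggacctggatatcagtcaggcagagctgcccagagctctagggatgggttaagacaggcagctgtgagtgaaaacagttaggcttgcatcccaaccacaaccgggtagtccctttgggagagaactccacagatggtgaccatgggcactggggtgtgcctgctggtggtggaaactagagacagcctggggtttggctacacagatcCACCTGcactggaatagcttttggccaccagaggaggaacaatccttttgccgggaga
Cd79a: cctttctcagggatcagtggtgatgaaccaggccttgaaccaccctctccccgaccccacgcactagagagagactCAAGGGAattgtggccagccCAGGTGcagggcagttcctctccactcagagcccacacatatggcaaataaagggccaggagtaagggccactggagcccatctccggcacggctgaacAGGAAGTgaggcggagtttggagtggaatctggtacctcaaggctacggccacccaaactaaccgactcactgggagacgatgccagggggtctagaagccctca
Cd72: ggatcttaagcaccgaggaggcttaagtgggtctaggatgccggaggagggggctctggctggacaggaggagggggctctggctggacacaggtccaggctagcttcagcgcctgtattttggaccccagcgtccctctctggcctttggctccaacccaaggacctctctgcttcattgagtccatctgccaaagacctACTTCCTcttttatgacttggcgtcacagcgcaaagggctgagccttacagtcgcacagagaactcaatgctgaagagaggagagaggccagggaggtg

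Windows were found for 8 of the 9 genes by symbol, and 5 motifs were searched on both strands in all 32851 RefSeq windows. The E2A E-box CAGGTG, present in 20.2% of windows, was found in Vpreb1, Igll1 and Cd79a. The short EBF motif CAAGGGA (5.06% of windows) was found in Cd79a alone of these genes. The ETS motif AGGAAGT (9.35%), which PU.1 and Spi-B can bind, was found in Cd72, Cd79a and Vpreb3, and the octamer ATGCAAAT (1.74%) in Vpreb3. No window of the 8 genes held the forkhead motif TGTTTAC (3.65%). A match describes the letters of the window and not the binding of a factor.

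**Figure D2:**
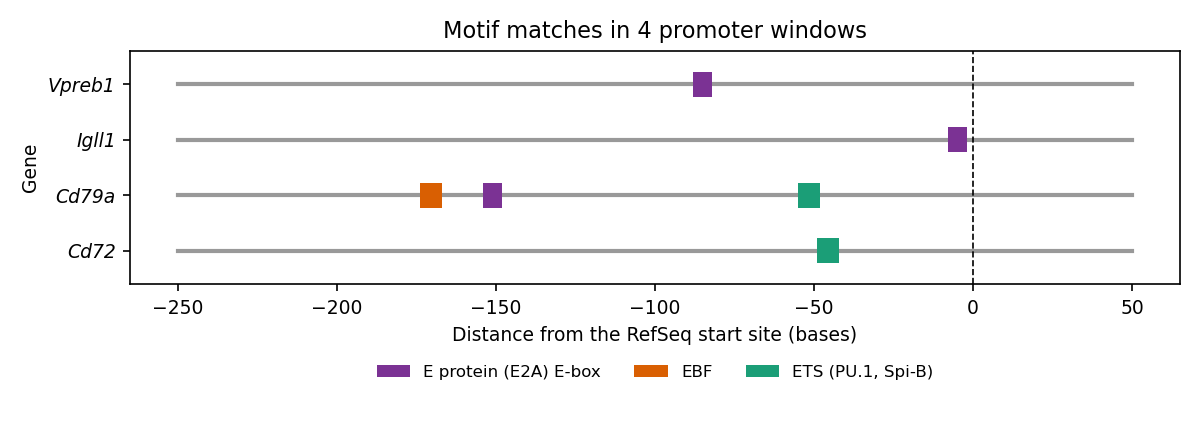
Motif matches in the promoter windows of Vpreb1, Igll1, Cd79a and Cd72, by distance in bases from the RefSeq start (dashed line), with 1 colour for each factor. Cd79a holds 3 different motifs within the window, and the E-box of Igll1 starts 8 bases before the start.

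Vpreb1 (chr16:16868401-16869255, minus strand) encodes VpreB1, the variable-like part of the surrogate light chain. It stood at 0.136, 0.131 and 0.256 CPM in pro-lymphoid replicates 1, 5 and 6 (5, 5 and 11 counts). In pro-myeloid replicates 2, 3 and 4 it stood at 0.338, 1.86 and 3.27 CPM (13, 63 and 151 counts). The lowest pro-myeloid library, replicate 2, was close to the highest pro-lymphoid one, and replicates 3 and 4 were well above. The means of 0.174 ± 0.0709 and 1.83 ± 1.47 CPM differ 10.5-fold (log2 fold change -3.37 ± 0.91, adjusted p = 0.0233 by edgeR). The call was lost without pro-lymphoid replicate 1, 5 or 6 or pro-myeloid replicate 3 or 4 (adjusted p from 0.0528 to 0.0729), and with limma-voom (adjusted p = 0.0662). Without pro-myeloid replicate 4 the log2 fold change was -2.57, and without replicate 2 it was -3.86 (adjusted p = 0.00118).

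Igll1 (chr16:16860671-16863985, minus strand) encodes λ5, the constant-like part of the surrogate light chain, and lies 4415 bases from Vpreb1 on the same strand. It had 1, 2 and 8 counts in pro-lymphoid replicates 1, 5 and 6, and 13, 11 and 24 counts in pro-myeloid replicates 2, 3 and 4. The groups did not overlap in CPM either, at 0.0271, 0.0523 and 0.186 against 0.338, 0.326 and 0.52 CPM. The means of 0.0885 ± 0.0855 and 0.395 ± 0.109 CPM differ 4.46-fold (log2 fold change -2.08 ± 0.63, adjusted p = 0.0316 by edgeR). With 11 against 48 counts the exact 95% counting interval of the ratio is 2.17 to 9.04. The call was lost with DESeq2 (adjusted p = 0.115), without the filter (0.0506), and without pro-lymphoid replicate 1 or 5 or pro-myeloid replicate 3 or 4 (0.0947, 0.118, 0.05 and 0.114), and without pro-lymphoid replicate 6 the log2 fold change was -3.23.

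Vpreb3 (chr10:75948312-75949646, plus strand), a relative of VpreB that binds new heavy chains in the cell, was barely read. It had 0, 1 and 0 counts in pro-lymphoid replicates 1, 5 and 6, and 0, 2 and 1 counts in pro-myeloid replicates 2, 3 and 4. The pro-myeloid to pro-lymphoid ratio of 2.91 has an exact 95% counting interval of 0.234 to 153, so no difference was detectable at this depth.

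Vpreb2, the near-identical copy of Vpreb1, had 0, 0 and 2 counts in pro-lymphoid replicates 1, 5 and 6 and 0, 5 and 12 in pro-myeloid replicates 2, 3 and 4. The GENCODE transcripts of both genes agree at 739 of 759 aligned bases (97.4%), and 14.5% of the 100-base windows of Vpreb1 occur unchanged in Vpreb2. A read from a shared window can be counted for either gene, so the split between Vpreb1 and Vpreb2 is uncertain. None of the windows of Igll1 or Vpreb3 occurs in another transcript.

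Per kilobase of counted exon the partners of the surrogate light chain were unequal. Vpreb1 stood at 2.38 ± 1.91 CPM per kilobase in pro-myeloid culture and Igll1 at 0.454 ± 0.125, and in pro-lymphoid culture they stood at 0.227 ± 0.0923 and 0.102 ± 0.0982. The Vpreb1 level per kilobase was 1.13, 6.49 and 7.13 times that of Igll1 in pro-myeloid replicates 2, 3 and 4, and 5.66, 2.83 and 1.56 times in pro-lymphoid replicates 1, 5 and 6. It was above that of Igll1 in each of the 6 libraries, and the ratios of the groups overlapped. For comparison, the median tested gene stood at 10.6 CPM per kilobase in pro-myeloid and 9.89 in pro-lymphoid culture.

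The signalling chains were read at very different levels, although their products pair in the receptor. Cd79b (chr11:106311341-106314529, minus strand), which encodes Igβ, stood at 34.1, 28.4 and 24.3 CPM in pro-lymphoid replicates 1, 5 and 6, and at 28.6, 49.5 and 43.2 CPM in pro-myeloid replicates 2, 3 and 4. The groups overlapped through pro-myeloid replicate 2, and the difference did not pass the test (28.9 ± 4.92 against 40.4 ± 10.8 CPM, log2 fold change -0.48 ± 0.23, adjusted p = 0.135 by edgeR). Without pro-myeloid replicate 2 it did (-0.68, adjusted p = 0.0196).

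Cd79a (chr7:24897511-24902197, plus strand), which encodes Igα, stood at 0.542, 0.314 and 0.209 CPM in pro-lymphoid replicates 1, 5 and 6 (20, 12 and 9 counts). In pro-myeloid replicates 2, 3 and 4 it stood at 0.208, 0.296 and 0.152 CPM (8, 10 and 7 counts). The groups overlapped, and the difference did not pass the test (0.355 ± 0.170 against 0.219 ± 0.0727 CPM, log2 fold change 0.71 ± 0.53, adjusted p = 0.326 by edgeR). Counts of Cd79a were thus low in each of the 6 libraries.

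Per kilobase of counted exon, Cd79b reached 24.1 ± 4.11 CPM in the pro-lymphoid group and 33.7 ± 8.98 CPM in the pro-myeloid group, and Cd79a 0.268 ± 0.128 and 0.165 ± 0.0548 CPM. Cd79b stood 69.6, 100 and 128 times above Cd79a in pro-lymphoid replicates 1, 5 and 6, and 152, 185 and 316 times in pro-myeloid replicates 2, 3 and 4. Every pro-myeloid ratio was above every pro-lymphoid one, although neither gene passed the test alone. A 2-sided exact permutation test of the log2 ratio gave p = 0.1, the smallest that 3 against 3 libraries allow, and the same test of Vpreb1 over Igll1 gave p = 0.8 (exact). Neither test could fall under 0.05, so they cannot decide whether the ratios differ. The Cd79b ratios rest on 7 to 20 Cd79a counts per library, and the nearest, 128 and 152, on 9 and 8.

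By this scale Cd79b lay at percentile 84.7 of all counted genes under pro-lymphoid and 88.4 under pro-myeloid conditions, where Foxo1 lay at 56.7 and 65.7 and Cd79a at 50.6 and 47.5. Cd72 moved furthest along it, from percentile 55.1 in pro-myeloid to 85.5 in pro-lymphoid culture. From pro-lymphoid to pro-myeloid culture Pax5 lay at 42.2 and 55.4, Vpreb1 at 50 and 59.3, and Igll1 at 46.9 and 51.6. The SDs of Cd79b and Cd72 do not separate both genes in pro-lymphoid culture (24.1 ± 4.11 and 25.6 ± 8.18 CPM per kilobase), and those of Vpreb1, Pax5 and Igll1 overlap in pro-myeloid culture.

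Cd72 (chr4:43447724-43454626, minus strand) was the one of the 6 tested genes that passed as higher in pro-lymphoid culture. It stood at 37.4, 51.4 and 26.9 CPM in pro-lymphoid replicates 1, 5 and 6, and at 0.677, 2.9 and 1.19 CPM in pro-myeloid replicates 2, 3 and 4. The lowest pro-lymphoid library was well above the highest pro-myeloid one. The means of 38.5 ± 12.3 and 1.59 ± 1.16 CPM differ 24.2-fold (log2 fold change 4.64 ± 0.49, adjusted p = 0.000491 by edgeR), and without pro-myeloid replicate 3 the log2 fold change was 5.33.

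The exons of Cd72 overlap those of Tesk1, a kinase gene on the opposite strand, by 313 bases, and the libraries do not mark strand. Of the 100-base windows of Cd72 transcripts 15.3% occur in Tesk1 transcripts. Tesk1 was itself higher in pro-lymphoid culture (54.1 ± 9.40 against 21.7 ± 7.08 CPM, log2 fold change 1.32 ± 0.25, adjusted p = 0.00626 by edgeR), and how reads of the overlap were shared was not tested.

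**Figure D3:**
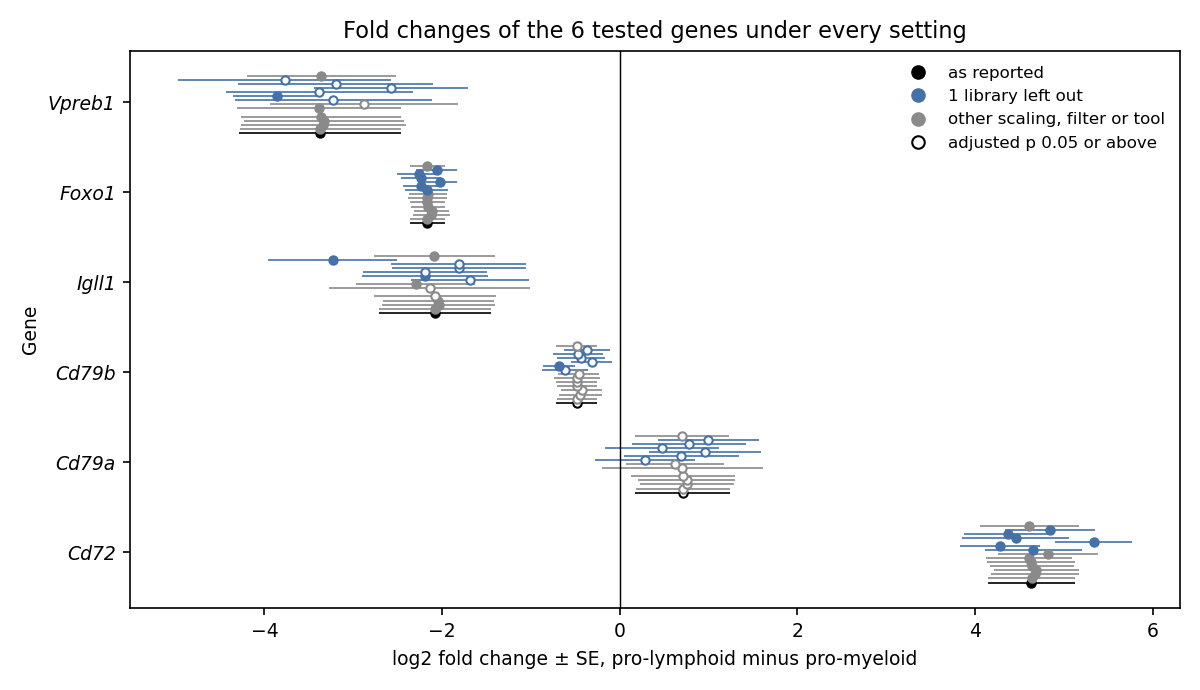
Log2 fold change (pro-lymphoid minus pro-myeloid) with its SE for the 6 tested genes under each setting, in black as reported, in blue with 1 library left out and in grey with another scaling, filter or tool. Foxo1 and Cd72 are filled (adjusted p under 0.05) under every setting drawn, and open symbols show where Vpreb1 and Igll1 lose the call.

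The transcription factors that stand upstream of EBF1 and PAX5 or work with them moved both ways. Of 22 tested factors, pro-lymphoid culture had 8 higher and 7 lower, and 7 did not pass the test, with a median log2 fold change of -0.26. The share of all genes tested that passed, 38.6%, is the background for this list and for those below. Tcf3, which encodes E2A, was higher, at 270 ± 30.5 against 104 ± 6.58 CPM (log2 fold change 1.38 ± 0.12, adjusted p = 0.000243 by edgeR). Spib, an ETS factor of B cells and plasmacytoid dendritic cells, stood at 54.2, 146 and 56.5 CPM in pro-lymphoid replicates 1, 5 and 6, and at 0.0781 to 0.152 CPM in the pro-myeloid libraries (9.36 ± 0.65, adjusted p = 5.07e-05). Sox4, which pro-B cells need, rose as well (219 ± 20.0 against 57.2 ± 18.1 CPM, adjusted p = 0.000889). Ets1, another ETS factor of lymphocytes, went the opposite way, with 16 counts in the pro-lymphoid group and 11937 in the other (-9.49 ± 0.31, adjusted p = 1.17e-06). Without pro-lymphoid replicate 6, which left the fewest calls, 5 factors were higher and 5 lower, and without pro-myeloid replicate 2, 6 and 8.

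Genes that FOXO factors are known to drive were found on both sides although Foxo1 fell. Of 14 tested, pro-lymphoid culture had 5 higher and 4 lower, and 5 did not pass, with a median log2 fold change of -0.07 (5 higher and 5 lower without pro-myeloid replicate 2). The recombinase genes were read almost only in pro-lymphoid culture: Rag1 stood at 7.32, 7.29 and 1.56 CPM in replicates 1, 5 and 6 and at 0 counts in all pro-myeloid libraries. Against a floor of 3 counts over the pro-myeloid group it was at least 211-fold higher (adjusted p = 0.00797 by edgeR). Rag2 stood at 18.1 ± 3.05 against 0.0342 ± 0.0306 CPM (log2 fold change 8.94 ± 0.43, adjusted p = 4.76e-07). Il7r, the receptor of the cytokine that early B cells need, stood at 14.6 ± 5.09 against 0.171 ± 0.0165 CPM (6.40 ± 0.47, adjusted p = 9.49e-05). Ccr7, a homing receptor, rose too (60.5 ± 33.1 against 0.352 ± 0.0612 CPM, adjusted p = 0.000166).

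**Figure D4:**
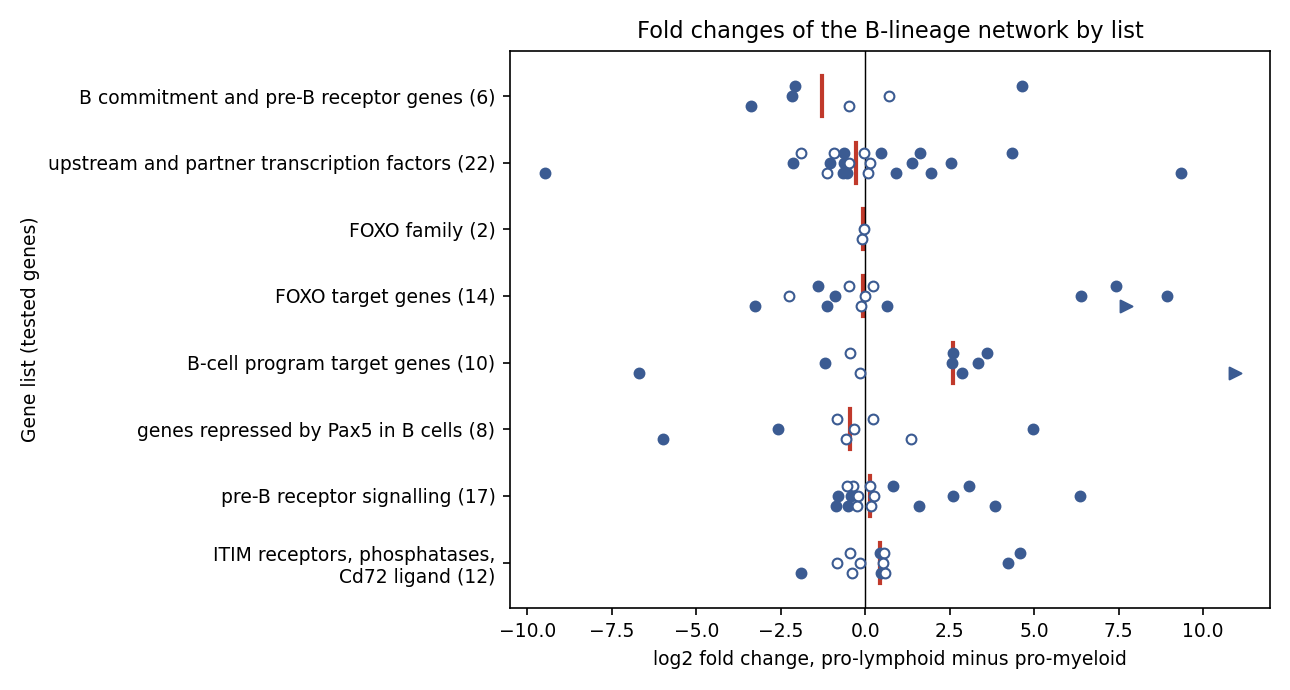
Log2 fold change (pro-lymphoid minus pro-myeloid) of each tested gene in the 9-gene set and in 7 lists of related genes, filled where the adjusted p is under 0.05, with a red bar at the median. Triangles are lower limits for 2 genes with 0 counts in pro-myeloid culture (Rag1 in 1 list and Ly6d in another, the latter named after its values were seen), and the B-cell program targets have the highest median, 2.59 (1.21 with a filter of 1 CPM in at least 3 libraries).

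Of 19 genes listed as targets of the B-cell program, only 10 passed the low-count filter, of which 6 rose and 2 fell in pro-lymphoid culture. Their median log2 fold change was 2.59, against 0.00 for all genes tested, and 2.48 without pro-myeloid replicate 2 (6 higher and 2 lower of 11). With a filter of 1 CPM in at least 3 libraries, which left 8 of them, it was 1.21, with 4 higher and 2 lower. Of the 6 that rose, Ly6d, named after its values were seen, is also among the plasmacytoid dendritic cell markers below. Cr2, a complement receptor of mature B cells, stood at 0.635 ± 0.183 against 0.0547 ± 0.0465 CPM (log2 fold change 3.35 ± 0.58, adjusted p = 0.00203 by edgeR). Blnk, the adaptor that carries the pre-B receptor signal, stood at 1.0, 3.79 and 2.19 CPM in pro-lymphoid replicates 1, 5 and 6, and at 0.234 to 0.498 CPM in the pro-myeloid libraries (2.61 ± 0.60, adjusted p = 0.0129). Ralgps2 rose from 2.49 ± 0.383 to 14.7 ± 2.51 CPM (2.56 ± 0.24, adjusted p = 0.000278). The 2 that fell were Cd24a (310 ± 39.8 against 710 ± 64.4 CPM, adjusted p = 0.000814) and Bst1 (1.16 ± 0.657 against 120 ± 67.6 CPM, adjusted p = 0.000309), whose products are surface proteins of precursor B cells and of myeloid cells.

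Of the B-cell markers, Ms4a1 (CD20) had 5 counts in the pro-lymphoid group and 0 in the other, and Blk had 20 and 0. The 10 B-cell markers summed to 27.8 to 37.7 CPM in pro-lymphoid and 29.3 to 62.0 CPM in pro-myeloid libraries, most of it Cd79b. Without Cd79b they summed to 3.12 to 9.33 and 0.703 to 12.5 CPM, which overlap. The libraries are labelled as transformed HSPCs, and of 8 HSPC markers 7 were read and Mecom was at 0 in all libraries. These markers also differed between the cultures: of 6 tested, 2 were higher (Kit and Cd34) and 3 lower (Myb, Hoxa9 and Meis1), named after their values were seen, and Spink2 was at 0 in all pro-lymphoid libraries. Their sums did not overlap, at 645 to 993 CPM against 1079 to 1327 CPM, and their part in the levels of the 9 genes was not tested.

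Of 8 tested genes that PAX5 is known to repress in B cells, pro-lymphoid culture had 1 higher and 2 lower, with a median log2 fold change of -0.45. As a share this was close to the 38.6% of all genes tested that passed in either direction. Flt3, a receptor of lymphoid progenitors, stood at 389, 511 and 401 CPM in pro-lymphoid replicates 1, 5 and 6, and at 0.729, 30.7 and 10.2 CPM in pro-myeloid replicates 2, 3 and 4 (log2 fold change 4.98 ± 0.99, adjusted p = 0.0073 by edgeR). Mpo, the neutrophil peroxidase, fell from 148, 1511 and 3304 CPM in pro-myeloid replicates 2, 3 and 4 to 34.0, 3.71 and 40.8 CPM in pro-lymphoid replicates 1, 5 and 6 (-5.98 ± 1.31, adjusted p = 0.0106). Csf3r, the G-CSF receptor, fell as well (30.4 ± 23.4 against 181 ± 47.5 CPM, adjusted p = 0.00737). Csf1r, the M-CSF receptor, did not pass the test (257 ± 131 against 455 ± 178 CPM, adjusted p = 0.156), but did without pro-lymphoid replicate 1 (adjusted p = 0.0333). Without pro-myeloid replicate 2, 2 of the list were higher and 3 lower, with Fcer1g, an Fc receptor chain, among the latter (adjusted p = 0.0296, against 0.0597 with all libraries).

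The genes that relay the pre-B receptor signal split as well. Of 17 tested, pro-lymphoid culture had 6 higher and 4 lower, with a median log2 fold change of 0.15 (5 and 3 without pro-myeloid replicate 2). Of all genes tested, 38.6% passed in either direction. The 4 lower, named after their values were seen, were Prkcb (log2 fold change -0.87, adjusted p = 0.00578 by edgeR), Nck1 (-0.81, 0.0101), Lyn (-0.50, 0.0264) and Vav1 (-0.41, 0.0496). The kinase genes Fyn (110 ± 50.1 against 7.62 ± 3.28 CPM, log2 fold change 3.85 ± 0.44, adjusted p = 0.00072 by edgeR) and Zap70 (7.11 ± 2.89 against 0.0802 ± 0.0762 CPM, 6.35 ± 0.65, adjusted p = 0.000217) were higher. Syk, the kinase that binds Igα and Igβ, stood at 198 ± 44.5 against 256 ± 15.4 CPM and did not pass (-0.37 ± 0.17, adjusted p = 0.121), but did without pro-lymphoid replicate 1 (-0.56, adjusted p = 0.0257). The exchange factor gene Vav2 (34.8 ± 3.96 against 11.5 ± 3.37 CPM, adjusted p = 0.002) and the ubiquitin ligase gene Cblb (43.9 ± 5.32 against 24.8 ± 0.777 CPM, adjusted p = 0.00329) rose.

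Among 12 tested inhibitory receptors of the kind of CD72, their phosphatases and the CD72 ligand, 4 were higher and 1 lower, with a median log2 fold change of 0.45 (5 and 1 without pro-myeloid replicate 2). The share of this list that passed was close to that of all genes tested (38.6%). Siglecg, an inhibitory lectin of B cells, stood at 16.5, 16.2 and 9.47 CPM in pro-lymphoid replicates 1, 5 and 6, and at 0.13, 0.74 and 0.867 CPM in pro-myeloid replicates 2, 3 and 4 (log2 fold change 4.57 ± 0.49, adjusted p = 0.000518 by edgeR). Cd5, an inhibitory receptor of lymphocytes, also rose (66.0 ± 23.7 against 3.50 ± 2.02 CPM, 4.24 ± 0.44, adjusted p = 0.000469), and Lair1, a collagen receptor, fell (26.8 ± 8.0 against 100 ± 32.9 CPM, adjusted p = 0.00289). The phosphatase gene Inpp5d (SHIP1) was higher by a small amount (276 ± 23.4 against 203 ± 26.4 CPM, 0.44 ± 0.13, adjusted p = 0.0336), a call lost without pro-lymphoid replicate 1, 5 or 6 or pro-myeloid replicate 4 (adjusted p from 0.0681 to 0.109). Ptpn6 (SHP-1), which CD72 recruits, missed the threshold (719 ± 77.1 against 489 ± 121 CPM, 0.56 ± 0.19, adjusted p = 0.0575) and passed it without pro-myeloid replicate 2 (0.77, adjusted p = 0.00694). The ligand gene Sema4d stood at 221 ± 35.1 against 246 ± 35.3 CPM (adjusted p = 0.474). The list's 5 calls fell to 3 without pro-myeloid replicate 4 or pro-lymphoid replicate 5 or 6, and rose to 9 with DESeq2.

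Markers of some other cell types differed between the cultures, while the sums of most of these lists overlapped. Of 8 tested neutrophil markers, 7 were lower in pro-lymphoid culture, and the sum of the list was 193 to 390 CPM there against 4536 to 9115 CPM in pro-myeloid culture. Of 6 tested plasmacytoid dendritic cell markers, 5 rose and 1 fell (list sum 481 to 890 against 498 to 648 CPM). The 1 that fell, named after its values were seen, was the transcription factor gene Tcf4 (320 ± 35.1 against 492 ± 74.6 CPM, log2 fold change -0.62 ± 0.15, adjusted p = 0.0154 by edgeR). Siglech stood at a mean of 50.3 against 0.558 CPM (adjusted p = 0.00482 by edgeR) and Bst2 at 119 against 55.3 CPM (adjusted p = 0.00367). In pro-lymphoid replicates 1, 5 and 6 Siglech stood at 6.78, 93.1 and 51.1 CPM, and Cd72 at 37.4, 51.4 and 26.9 CPM. Replicate 5 was thus highest in both genes, and the lowest was replicate 1 in Siglech and replicate 6 in Cd72. The part of either cell program in the levels of Cd72, Foxo1, Vpreb1 or Igll1 was not tested. Macrophage markers summed to 88.1 to 197 against 84.4 to 154 CPM, plasma cell markers to 134 to 169 against 278 to 535 CPM, and T-cell markers to 1.36 to 5.73 against 2.78 to 6.31 CPM with Cd3e at 0 throughout. Markers of NK cells (0.419 to 0.706 against 0.326 to 1.82 CPM, Ncr1 and Gzma at 0) and erythroid cells (0.549 to 1.14 against 0.989 to 1.11 CPM, Hba-a1, Hba-a2 and Hbb-b1 at 0) were low in all libraries. Stromal markers summed to 1.9 to 19.4 against 5.54 to 17.2 CPM, with Col1a2, Col3a1, Dcn and Lum at 0.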

How the data were processed

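The deposited table holds raw read counts of 23337 genes in 6 libraries. The counter was featureCounts 1.5.1, per the file headers, run over exons of UCSC mm10 genes, for primary alignments only and without strand, and the authors' table also gives each gene's exon length. TopHat, Bowtie and Trimmomatic are also named in the submitters' processing notes, as is DESeq2, with other settings not given in the sources used here. Per the labels' protocols, libraries were poly(A)-selected, made with a NEBNext Ultra kit and sequenced as single-end reads of 100 bases. A read that matches near-identical genes is kept at 1 place, so the values of such copies are uncertain. No column of another sample was present.

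Counts were tested over all genes with edgeR 4.0.16 (R 4.3.3): filterByExpr, TMM scaling, quasi-likelihood F test, two-sided, Benjamini-Hochberg adjustment at 0.05, both cultures in 1 fit without covariates. The SE was derived from the F statistic. Unless another tool is named, adjusted p-values come from this test. Levels are TMM-scaled CPM, divided by exon length in kilobases where genes are compared. Counting intervals are exact and, like floors, cover counting error only, since the reads carry no molecular identifiers. On simulated counts for 12477 genes, the fit called 0% of 50 genes at a log2 fold change of 0, 56% at 1 and 100% at 2. The simulation gave every gene the same dispersion (spread between libraries beyond counting error). These shares therefore do not hold for genes that vary more between libraries, such as Vpreb1 and Igll1.

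Groups and replicate numbers come from the labels. The 9 genes, the lists and the rule for named genes were chosen with earlier results of these data known. The rule takes the 9 genes, the up to 4 smallest adjusted p-values of each list, the panel Vpreb2, Rag1, Rag2, Il7r, Tcf3, Spib, Blnk, Flt3, Csf1r, Foxo3, Sema4d, Ptpn6 and Syk, the 3 genes nearest in profile to Pax5, Vpreb1 and Igll1, and the neighbours of the 9 genes. A few genes that it takes are left unreported. Of 167 list symbols, 5 were found under an older symbol and 1 (Pirb) had no match. Alternatives were other scalings (RLE, upper quartile, none), no filter or 1 CPM in at least 3 libraries, DESeq2 1.42.0, limma-voom (limma 3.58.1) and each library left out. After seeing the data, edgeR's legacy fit and no filter with each library left out were added. Promoter windows are from RefSeq (GRCm38.p6), and transcript comparisons use GENCODE M21 sequences.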

Additional observations from a re-analysis of the deposited data

How the results depend on the processing

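Foxo1 and Cd72 kept their direction and stayed past the threshold under every alternative run, while Vpreb1 and Igll1 kept their direction only (values beside each gene). Over all scalings, filters, tools and left-out libraries, the 6 tested genes gave 22 changes to a weaker verdict and 2 to a stronger one, and none reversed; Pax5, which only some settings test, is given beside its counts. Of the 9 genes, 4 passed as reported, 2 with the filter of 1 CPM, which left 3 to test, and 3 with DESeq2 or limma-voom. With a library left out, 2 to 6 passed, and without a filter as well, chosen after seeing the data, 2 to 5. The highest count, 6 of 7 tested, was without pro-myeloid replicate 2, which added Pax5 (log2 fold change -5.77, adjusted p = 9.04e-05 by edgeR) and Cd79b. The lowest was without pro-myeloid replicate 3 or 4 or pro-lymphoid replicate 5. Of all genes, 4821 (38.6% of those tested) passed as reported, and 4421 to 5432 (28.8% to 43.5%) under the other settings. With a library left out 3086 to 5385 (24.2% to 42.2%) passed, and without a filter as well 2704 to 5275 (16.3% to 31.9%). The lowest was both times without pro-lymphoid replicate 6, and the highest both times without pro-myeloid replicate 2. The sign of 2 genes near 0 turned: Foxo3 (0.00209 without pro-myeloid replicate 2, adjusted p = 0.992) and Foxo4 (0.0188 without pro-lymphoid replicate 5, adjusted p = 0.938), whose log2 fold changes with a library left out ran from -0.21 and from -0.13 up to these values, and the cause was not tested. Upper-quartile scaling moved the median of all genes by 0.0469 and turned the balance of all calls (2492 higher and 2473 lower, against 2169 and 2652 as reported). Depth limits Ebf1, Vpreb3 and Vpreb2, whose counts are too few for the low-count filter. Without it, neither Ebf1 nor Vpreb3 passed (adjusted p = 0.224 and 0.566). No paired analysis was possible because no replicate number occurs in both cultures.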

Other observations

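The genes whose profile over the 6 libraries lay nearest to Pax5, by Euclidean distance of log2(CPM + 0.1) values centred on their mean, were Ankrd55 (distance 0.844), Ffar2 (1.03) and Zc3h12d (1.33), where the median tested gene lay at 4.73. Ffar2, a receptor of short-chain fatty acids, stood at 1.63, 2.98 and 2.07 CPM in pro-lymphoid replicates 1, 5 and 6, and at 2.76, 33.2 and 21.6 CPM in pro-myeloid replicates 2, 3 and 4. Like Pax5, all 3 were high in pro-myeloid replicates 3 and 4 and low in replicate 2. Nearest to Vpreb1 were Far2 (0.447), Rufy4 (0.828) and Camk1 (0.882), with a median of 3.77 over tested genes. Far2, a fatty acyl reductase gene, stood at 2.6, 1.78 and 2.68 CPM in pro-lymphoid replicates 1, 5 and 6, and at 3.93, 16.4 and 31.1 CPM in pro-myeloid replicates 2, 3 and 4. Nearest to Igll1 were Cd59b (0.538), Txnrd3 (0.557) and Tcam1 (0.604), with a median of 2.21. Genes were picked for this likeness, which was not tested, and all of them share the same 6 libraries.

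Some genes beside the 9 differed between the cultures as well. Top3b, a topoisomerase gene 1635 bases from Vpreb1 on the opposite strand, was at a lower level in pro-lymphoid libraries (69.5 ± 7.05 against 121 ± 8.91 CPM, log2 fold change -0.80 ± 0.12, adjusted p = 0.00222 by edgeR). Chchd10, a mitochondrial protein gene 10577 bases from Vpreb3, was lower (2.78 ± 0.522 against 22.8 ± 6.81 CPM, -3.03 ± 0.28, adjusted p = 0.000299) where Vpreb3 itself was at 1 and 3 counts. Rnf145, 52613 bases from Ebf1, was higher (98.7 ± 2.84 against 27.9 ± 23.5 CPM, 1.83 ± 0.52, adjusted p = 0.028). Melk, a kinase gene 166830 bases from Pax5, was higher (53.0 ± 8.26 against 30.9 ± 6.64 CPM, 0.78 ± 0.20, adjusted p = 0.019), and Zcchc7, 46118 bases away on its other side, did not pass (29.0 ± 2.11 against 35.9 ± 3.30 CPM, adjusted p = 0.108).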
